A study of Mus musculus with 19 samples.

Results

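The expression of 10 genes of DNA replication was followed in RNA-Seq data from the suprarenal abdominal aorta (SRA) of male mice: Mcm2, Mcm3, Mcm4, Mcm5, Mcm6, Mcm7, Pcna, Rrm1, Rrm2 and Tyms. They were chosen by name, as the subunits of the replicative helicase, the sliding clamp and the enzymes that supply deoxynucleotides. Earlier results of these data were known when they were chosen. All 10 of them were among the 20408 genes measured. The 19 mice were ApoE-/- and about 8 weeks old when tamoxifen was started. They carried SMA-CreERT2, a tamoxifen-induced Cre driven by the promoter of smooth muscle α-actin. IKKβ-/- mice also carried floxed Ikbkb alleles, and IKKβ+/+ mice were littermates with the same Cre and no floxed allele. All mice were given tamoxifen, and RNA was taken 24 h after the start of an infusion of saline or angiotensin II (Ang II), at 500 to 1000 ng/min/kg per the labels. For these RNA-Seq samples the methods of the study give 1000 ng/min/kg. There were 5 saline-infused and 5 Ang II-treated IKKβ+/+ mice, and 4 saline-infused and 5 Ang II-treated IKKβ-/- mice. The deletion was confined by design to smooth muscle cells, whereas RNA came from the whole vessel wall with its endothelium, adventitia and any attached fat. In this whole-tissue RNA, Ikbkb was 23.8% lower in the 9 IKKβ-/- mice (533 ± 78.9 normalized counts, SD) than in the 10 IKKβ+/+ mice (699.7 ± 66.8, SD). The ranges overlapped, at 430 to 672 and 594 to 791. In the limma test described below, its log2 difference was -0.39 with saline (adjusted p 0.0988) and -0.42 with Ang II (adjusted p 0.173). The latter did not pass the threshold given below.

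The proteins encoded by Mcm2 to Mcm7 form a ring of unlike subunits that is loaded onto DNA before S phase and unwinds it at the fork. Pcna encodes the ring-shaped clamp that holds DNA polymerases on the template and that also serves DNA repair. Rrm1 and Rrm2 encode the large and the small subunit of ribonucleotide reductase, which makes deoxynucleotides from ribonucleotides, and Tyms encodes thymidylate synthase, which makes the thymidine nucleotide. Many of these genes are classical targets of E2F factors, whose activity rises when a cell leaves quiescence. In the healthy adult aorta few smooth muscle cells divide.

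The promoters were taken from RefSeq on GRCm38.p6, as windows of 300 bases from 250 bases before to 50 bases after an annotated start, and 9 of the 10 genes had a window (Mcm7 had a window at each of 2 starts). Both strands were searched for E2F motifs (TTCCCGC or TTCGCGC or TTGCCGC or TTGGCGC), for the NF-Y motif (CCAAT) and for the CHR motif (TTTGAA and also TTCGAA) of genes transcribed late in the cell cycle. E2F and NF-Y matches can share bases, as can E2F matches on opposite strands. An E2F motif was in 7 of the 10 windows, beside 9.57% of all 32851 windows in the mouse. These windows belonged to 6 of the 9 genes (Mcm3, Mcm5, Mcm6, Mcm7, Rrm1 and Rrm2). The NF-Y motif was in 9 of the 10 windows, from 8 of the 9 genes, and in 37.4% of all windows. The CHR motif was in 2 of the 10 windows (Mcm2 and Mcm7) and in 19.2% of all windows. Tyms had none of the 3 motifs in its window. The 250 bases before the starts of Mcm6 (chr1:128359706-128359955, minus strand) and Mcm5 (chr8:75109259-75109508, plus strand) are shown because they hold the most E2F matches ahead of a start. For Pcna (chr2:132253251-132253279, minus strand) and Mcm7 (chr5:138171939-138171967 and chr5:138171893-138171921, minus strand), the genes that passed the test below, 29 bases around each NF-Y match ahead of the upstream RefSeq start are shown. These stretches lie inside the spans of Pcna and Mcm7 given below, which reach farther upstream than the RefSeq starts. Sequences are written 5′ to 3′ on the strand of the gene, with E2F and NF-Y matches in capitals (ATTGG is CCAAT on the other strand).
Mcm6, before the start: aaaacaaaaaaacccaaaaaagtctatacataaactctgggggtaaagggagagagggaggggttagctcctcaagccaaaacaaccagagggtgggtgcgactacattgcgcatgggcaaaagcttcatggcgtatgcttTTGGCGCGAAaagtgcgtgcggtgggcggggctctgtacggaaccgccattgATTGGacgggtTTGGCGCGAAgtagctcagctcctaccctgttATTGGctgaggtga
Mcm5, before the start: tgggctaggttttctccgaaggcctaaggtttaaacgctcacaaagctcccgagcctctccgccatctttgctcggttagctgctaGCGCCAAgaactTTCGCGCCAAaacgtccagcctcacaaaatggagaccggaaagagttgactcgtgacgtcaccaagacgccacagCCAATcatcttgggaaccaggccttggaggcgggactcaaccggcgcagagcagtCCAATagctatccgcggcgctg
Pcna, NF-Y motif: accacgggtacgATTGGtccttgaggaga
Mcm7, NF-Y motif farther from the start: actcgtccattgATTGGttaaagttaggg
Mcm7, NF-Y motif nearer to the start: accccctatctgATTGGcgggttctcagc
In Mcm6 the E2F matches formed pairs on opposite strands that began 109 and 46 bases before the start, and the NF-Y matches lay 57 and 14 bases before it. In Mcm5 the E2F matches began 164, 152 and 149 bases before the start. The Mcm7 window also held an E2F match that began 165 bases before the start, and the Pcna window held no E2F match. These matches are letters in the reference sequence, and no binding was measured.

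Each mouse had 11382573 to 19906694 reads on genes. Values are given as counts normalized by DESeq2 (reads of a mouse divided by its size factor). Markers of smooth muscle cells (7 of 7 genes) summed to between 305181 and 634959 normalized counts over the 19 mice, while 7 T and NK cell markers summed to between 3.17 and 54.1, with 3 of the 7 in the saline-infused IKKβ+/+ group and 6 of the 7 in each other group at a median of 3 reads or fewer. In IKKβ+/+ mice the smooth muscle sums did not overlap between infusions, at 331768 to 440381 with saline and 459773 to 634959 with Ang II. They did overlap in IKKβ-/- mice, at 427967 to 585613 with saline and 305181 to 545782 with Ang II. The sum of 7 white adipocyte markers lay between 1024 and 9571 in saline-infused and between 2699 and 6783 in Ang II-treated IKKβ+/+ mice, and between 1130 and 4279 in saline-infused and between 2514 and 25736 in Ang II-treated IKKβ-/- mice. The labels name no batch and number the mice in a separate run for every group, so group and any batch cannot be told apart.

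All 10 genes were expressed in every mouse, with between 11.1 and 1518 normalized counts. Per kilobase of annotated exon, a length that sums the exons of all isoforms, the mean level over the 19 mice was highest for Mcm6, at 213 normalized counts, followed by Pcna at 157 and Mcm4 at 67.5. Mcm3 (38.8 per kilobase), Rrm1 (37.5) and Mcm7 (37.5) came next and lay within each other's spread: in saline-infused IKKβ+/+ mice they had 42.1 ± 4.99, 39.3 ± 1.87 and 34.8 ± 4.26 (SD, n = 5). Rrm2 (16.7), Mcm5 (15.5), Mcm2 (14.9) and Tyms (14.8) were lowest, and Rrm2, Mcm5 and Mcm2 overlapped in their spread in saline-infused IKKβ+/+ mice (19.5 ± 2.78, 15.8 ± 4.19 and 15.4 ± 2.06, SD, n = 5). This order depends on the length used, which was 11012 bases for Rrm1 and 2771 for Rrm2. Before division by length, Rrm1 (413 normalized counts) lay above Pcna (376), and Rrm2 (46.3) was lowest. The transcripts of the helicase subunits, which work as a single complex, were not at 1 level, and Mcm6 was above the other 5 in every group.

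**Figure D1:**
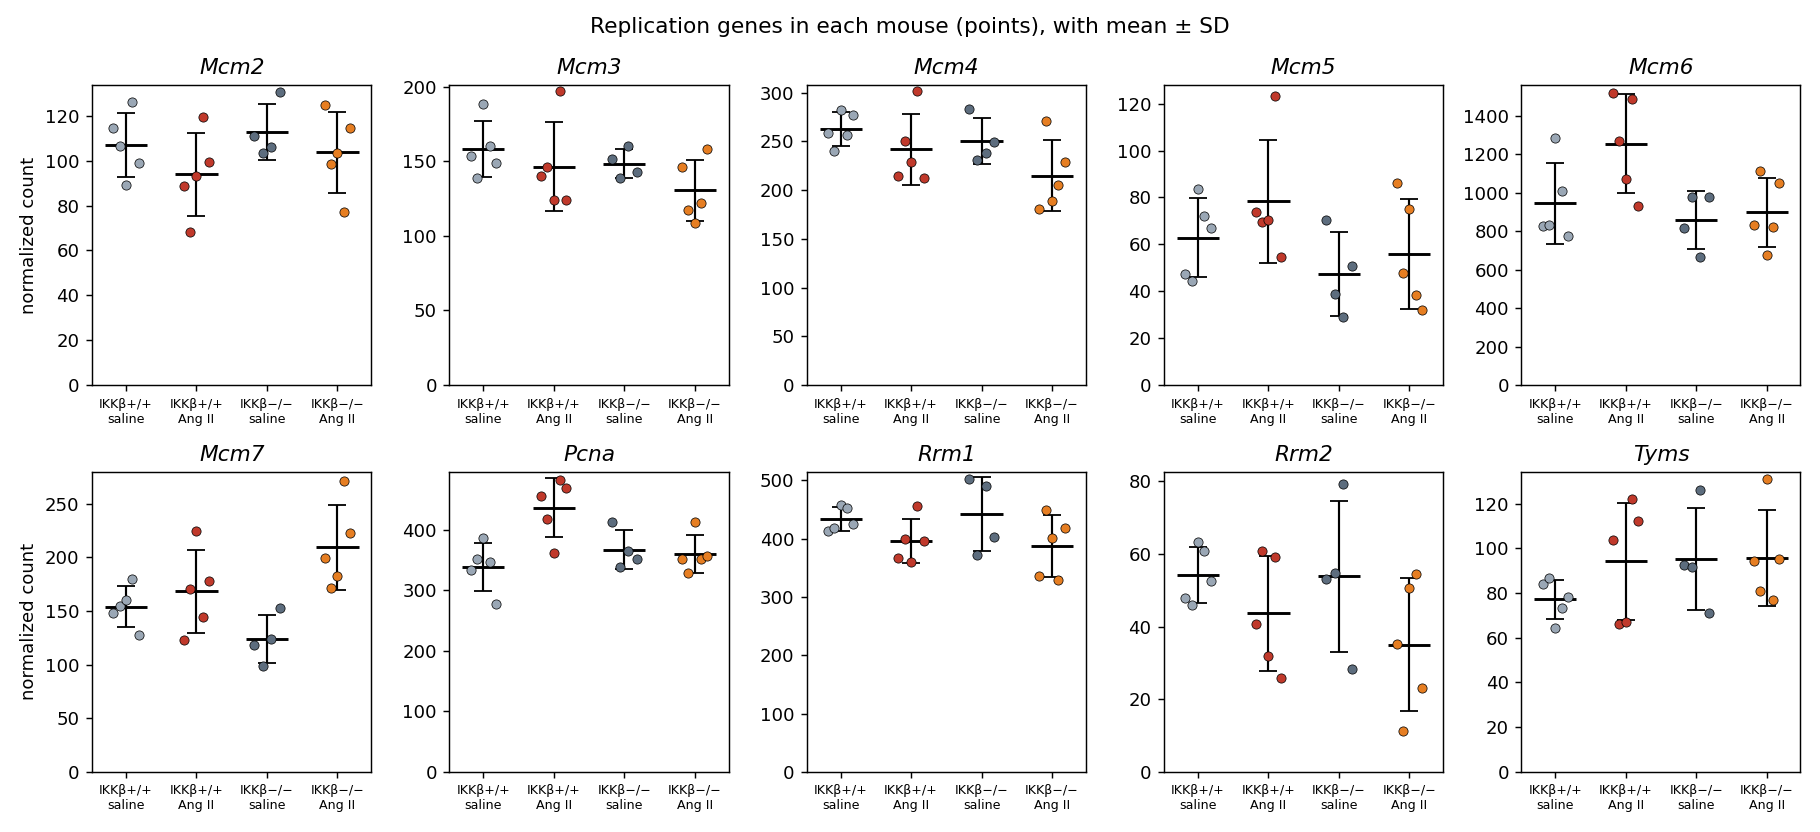
Normalized counts (vertical axes, linear, from 0) of the 10 replication genes in each of the 19 mice (points), by genotype and infusion, with the mean (bar) and SD (whiskers). Mcm7 in IKKβ-/- mice is the panel in which saline-infused (99.0 to 153) and Ang II-treated mice (171 to 271) do not overlap, and in Pcna 4 of the 5 Ang II-treated IKKβ+/+ mice lie above the highest saline-infused mouse of that genotype.

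The first question was whether 24 h of Ang II altered these genes in IKKβ+/+ aortas. Pcna passed the test, and the other 9 genes did not. In Ang II-treated IKKβ+/+ mice, Pcna (chr2:132249162-132253314) had 455, 417, 361, 482 and 469 normalized counts, against 333, 351, 386, 347 and 277 in saline-infused mice. All but 1 of the Ang II-treated mice lay above the highest saline-infused mouse, and the exception (X2356, at 361) lay within the saline range. The rise was 0.37 on the log2 scale (SE 0.11), with an adjusted p of 0.0573 (limma on log2(normalized count + 1), two-sided, Benjamini-Hochberg over 14845 genes). The threshold, taken from the study, required a fold change above 1.2 together with an adjusted p under 0.1. It was passed by 8.66% of all genes tested, 4.33% higher and 4.33% lower with Ang II, so 1 gene of 10 is close to that background. Leaving out any 1 of 6 mice of the comparison (X2350, X2358, X2359, X2370, X2376 or X2378) put the adjusted p of Pcna between 0.101 and 0.159, past the limit. In the same comparison 6 of the 7 smooth muscle markers had a log2 fold change above 0 and 2 (Cnn1 and Tagln) passed in the higher direction. Their part in the rise of Pcna was not tested. A processed pseudogene of Pcna in the same table had a mean of 4.29 normalized counts. In whole tissue, a different number of cells that express a gene cannot be told apart from a different amount of RNA per cell.

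Mcm6 (chr1:128331590-128359664) came nearest of the helicase subunits. It had 1518, 1270, 1073, 1487 and 930 normalized counts in Ang II-treated IKKβ+/+ mice and 825, 834, 1283, 1008 and 773 in saline-infused mice. The groups overlapped, since saline-infused mouse X2373 (1283) lay above 3 of the Ang II-treated mice. The log2 fold change of Mcm6 was 0.41 (SE 0.17), with an unadjusted p of 0.0258 and an adjusted p of 0.177. Mcm6 passed the threshold with array quality weights (adjusted p 0.0854) and without mouse X2373 (adjusted p 0.0973). Together with Pcna, 2 of the 10 genes had an unadjusted p under 0.05, beside 20.3% of all genes tested. No gene of the 10 had groups that did not overlap, beside 8.42% of all genes tested.

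The other subunits stayed short of the threshold, with log2 fold changes on either side of 0. Mcm5, which sits at the gate through which the ring opens together with Mcm2, had 73.9, 69.4, 70.2, 123 and 54.7 normalized counts with Ang II against 47.3, 44.5, 83.7, 72.2 and 66.9 with saline, and its log2 fold change was 0.30 (SE 0.30). Mcm7 had a log2 fold change of 0.10 (SE 0.17), Mcm3 of -0.13 (SE 0.15), Mcm4 of -0.13 (SE 0.13) and Mcm2 of -0.20 (SE 0.17). The adjusted p of these 5 genes lay between 0.534 and 0.779. Of the enzymes of nucleotide supply, Tyms had between 66.2 and 122 normalized counts with Ang II and between 64.3 and 86.5 with saline (log2 fold change 0.25, SE 0.21). Rrm1 had between 360 and 456 with Ang II and between 413 and 458 with saline (-0.13, SE 0.11). Rrm2, the subunit whose level limits the enzyme in dividing cells, had 40.7, 60.8, 31.8, 59.2 and 25.8 with Ang II against 47.9, 46.0, 63.4, 60.8 and 52.6 with saline (-0.37, SE 0.37). The median log2 fold change of the 10 genes was -0.01, beside 0.0056 over all genes tested.

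In IKKβ-/- mice the same comparison gave a different gene. Mcm7 (chr5:138164583-138172422) had 200, 171, 183, 271 and 222 normalized counts in Ang II-treated mice and 119, 99.0, 124 and 153 in saline-infused mice. Every Ang II-treated mouse lay above every saline-infused mouse, which was the case in either direction for 5.29% of all genes tested and for no other gene of the 10. Mcm7 rose by 0.75 on the log2 scale (SE 0.18, limma adjusted p 0.0272). The threshold was passed by 5.29% of all genes in this comparison, 2.59% higher and 2.69% lower with Ang II, and by 1 of the 10 genes, which was also the only 1 with an unadjusted p under 0.05 (17.8% of all genes). Mcm7 remained past the threshold when any 1 of the 19 mice was left out, with adjusted p between 0.0188 and 0.0849. The span of Mcm7 overlaps Ap4m1, on the opposite strand, by 421 bases at its 5′ end and Cops6 by 64 bases at its other end. In these IKKβ-/- mice Ap4m1 had a log2 fold change of 0.20 (adjusted p 0.530) and Cops6 of -0.09 (adjusted p 0.698).

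Levels of white adipocyte markers and of clock genes moved with Ang II in the same mice. Of 7 white adipocyte markers 6 could be tested (Adipoq, Plin1, Cidec, Retn, Fabp4 and Lipe), and all 6 passed in the higher direction, with a median log2 fold change of 4.02, and 13 clock genes summed to between 9659 and 13539 normalized counts with Ang II against 17813 to 24561 with saline. In the Ang II-treated IKKβ-/- mice the adipocyte sum and the value of Mcm7 were 2514 and 171 in X2383, and 6179 and 200 in X2380. They were 8675 and 222 in X2386, 23791 and 271 in X2385, and 25736 and 183 in X2384. In the saline-infused IKKβ-/- mice these 2 values were 1130 and 124 in X2406, and 1231 and 119 in X2401. They were 1236 and 153 in X2409, and 4279 and 99.0 in X2403. With the adipocyte score as a covariate the estimate for Mcm7 was 0.59 (adjusted p 0.513), and with the clock score 0.62 (adjusted p 0.386). These fits left 3 genes higher and 4 lower, and 17 higher and 10 lower, among all genes tested, and each score itself differed between the groups compared. The genotypes also differed with saline (IKKβ-/- minus IKKβ+/+), where 8 of the 13 clock genes passed higher and 3 lower. Clock sums in IKKβ+/+ mice were 7781 to 18339 with saline and 8055 to 9953 with Ang II. The 6 adipocyte markers were all lower in IKKβ-/- mice with saline (median -2.17) and all higher with Ang II (median 1.23). None of the 6 passed in either infusion, and 0 clock genes passed with Ang II. The part of fat, of the clock or of these differences with saline in the rise of Mcm7 was not tested beyond these fits.

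No other gene of the 10 passed the test in IKKβ-/- mice. Pcna had 352, 329, 413, 352 and 356 normalized counts with Ang II and 413, 339, 366 and 351 with saline, and these ranges overlapped (log2 fold change -0.03, SE 0.11). Mcm6 was likewise spread over similar ranges, between 675 and 1112 with Ang II and between 665 and 979 with saline (0.06, SE 0.18). Rrm2 had the lowest estimate, with 35.1, 11.1, 50.7, 54.6 and 23.1 normalized counts with Ang II against 53.1, 54.8, 79.3 and 28.3 with saline. Its log2 fold change was -0.72 with an SE of 0.39 (adjusted p 0.348), and a saline-infused mouse (X2409, at 28.3) lay below 3 of the Ang II-treated mice. Mcm4 had -0.23 (SE 0.13), Mcm3 -0.20 (SE 0.15), Rrm1 -0.19 (SE 0.12), Mcm2 -0.13 (SE 0.18), Mcm5 0.21 (SE 0.32) and Tyms 0.01 (SE 0.22). The median of the 10 genes was -0.08, beside -0.0029 over all genes tested.

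**Figure D2:**
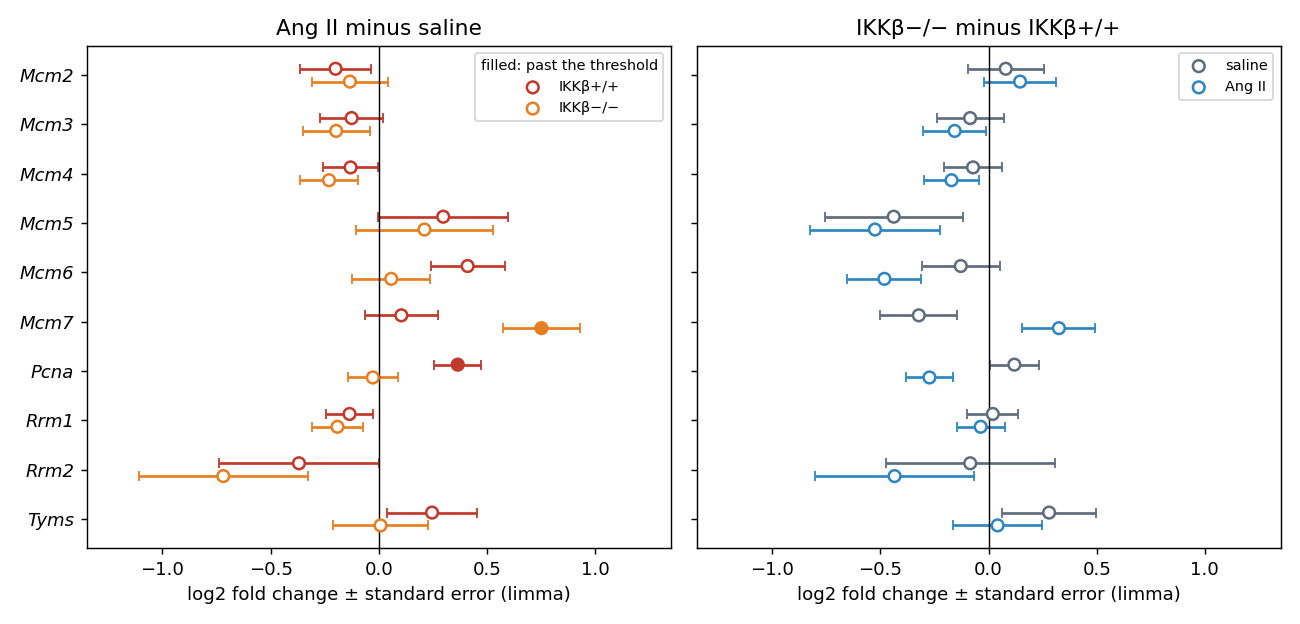
Log2 fold changes of the 10 genes (points) with their standard errors (limma), for Ang II minus saline in each genotype (left) and for IKKβ-/- minus IKKβ+/+ in each infusion (right). Filled points passed the threshold: Pcna in IKKβ+/+ mice (0.37) and Mcm7 in IKKβ-/- mice (0.75).

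A gene that passes in 1 genotype and not in the other is not thereby shown to differ between them, so the difference of the Ang II effect (IKKβ-/- minus IKKβ+/+) was tested as such. It was 0.65 on the log2 scale for Mcm7 (SE 0.25, unadjusted p 0.0159, limma adjusted p 0.359) and -0.39 for Pcna (SE 0.16, unadjusted p 0.0212, adjusted p 0.370). Neither passed, and nor did the other 8 genes, with estimates between -0.35 (Mcm6 and Rrm2) and 0.07 (Mcm2). Of all genes tested 0.00% passed this test and 11.1% had an unadjusted p under 0.05, beside 2 of the 10 genes. The edgeR quasi-likelihood test and DESeq2 also called 0 of the 10, but over all genes they differed from limma: edgeR called 0 higher and 3 lower, and DESeq2 called 111 higher and 168 lower.

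The genotypes were then compared within each infusion. With saline, 0 of the 10 genes passed in limma, edgeR or DESeq2, 0 had an unadjusted p under 0.05, and in 0 the groups did not overlap, beside 5.47%, 19.2% and 8.76% of all genes tested. The largest difference was that of Mcm5, with 70.5, 39.0, 28.8 and 50.8 normalized counts in IKKβ-/- mice against 47.3, 44.5, 83.7, 72.2 and 66.9 in IKKβ+/+ mice (log2 fold change -0.44, SE 0.32, adjusted p 0.470). Mcm7 had -0.32 (SE 0.18), with IKKβ-/- values of 99.0 to 153 that overlapped the 128 to 179 of IKKβ+/+ mice. Rrm1 (0.02, SE 0.12) had the estimate nearest to 0.

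With Ang II, 0 of the 10 genes passed in limma, edgeR or DESeq2, where 0.128% of all genes did in limma (3 higher and 16 lower) and 161 higher and 360 lower did in DESeq2. Here 2 of the 10 genes had an unadjusted p under 0.05, beside 14.3% of all genes. Mcm6 was 0.48 lower on the log2 scale in IKKβ-/- than in IKKβ+/+ mice (estimate -0.48, SE 0.17, unadjusted p 0.0106, adjusted p 0.225), at 898 ± 179 and 1256 ± 256 normalized counts (SD, n = 5 each). Pcna had an estimate of -0.27 (SE 0.11, unadjusted p 0.0197, adjusted p 0.271), at 360 ± 31.2 and 437 ± 48.8 (SD, n = 5 each). Groups that did not overlap were found in 1.54% of all genes and in 0 of the 10. The 2 comparisons of Ang II with saline share their groups with these, so their values for a gene are not independent of each other.

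The other genes of replication were described from 5 lists, none of which holds any of the 10 genes. Over all genes tested, 8.66% passed in IKKβ+/+ and 5.29% in IKKβ-/- mice. None of the 13 licensing and loading genes tested, which load the helicase (the ORC subunits, Cdc6 and Cdt1 among them), passed in either genotype, and their median log2 fold change was 0.06 in IKKβ+/+ and -0.02 in IKKβ-/- mice. Among 13 genes of helicase activation and the fork, Recql4, a helicase of the RecQ family, rose in IKKβ-/- mice by 2.54 (SE 0.54, adjusted p 0.0169). Recql4 was a rare transcript, with 0 to 7.7 normalized counts in saline-infused and 7.9 to 28.3 in Ang II-treated IKKβ-/- mice, and its estimate was 1.67 with a pseudocount of 4. It was past the threshold in 6 of 9 other settings and without each of the 19 mice in turn. Among 28 genes of polymerases, clamp loading and maturation, Rpa1, the large subunit of the protein that coats single-stranded DNA, rose in IKKβ+/+ mice by 0.53 (SE 0.14, adjusted p 0.0386), from 809 ± 60.9 to 1195 ± 324 normalized counts (SD, n = 5 each). The median of that list was 0.17 in IKKβ+/+ and -0.08 in IKKβ-/- mice.

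Of 15 further genes of deoxynucleotide supply, 1 passed in each genotype, beside 8.66% of all genes in IKKβ+/+ and 5.29% in IKKβ-/- mice. Cmpk2, a nucleotide kinase of mitochondria that is also induced by interferon, fell by 1.197 on the log2 scale in IKKβ+/+ mice (SE 0.37, adjusted p 0.0670), with 33.2 to 188 normalized counts with Ang II against 149 to 234 with saline, and kept its call in 12 of the 19 fits that left out a mouse. Samhd1, which degrades deoxynucleotides, rose in IKKβ-/- mice by 0.33 (SE 0.10, adjusted p 0.0992), from 764 ± 55.5 (SD, n = 4) to 961 ± 123 (SD, n = 5), and kept its call in 5 of the 19 fits that left out a mouse. Of 15 genes of purine and pyrimidine synthesis, 3 passed in IKKβ+/+ mice (2 higher and 1 lower, beside 8.66% of all genes) and 0 in IKKβ-/- mice. Impdh1, which commits purines to guanine nucleotides, rose by 0.58 (SE 0.16, adjusted p 0.0428), and Umps, which makes UMP, rose by 0.54 (SE 0.17, adjusted p 0.0816). Prps2, which makes the ribose donor of nucleotide synthesis, fell by 0.46 (SE 0.15, adjusted p 0.0955). None of these 3 calls held without X2350, X2358 or X2378, and the list had 5 genes higher and 1 lower with DESeq2. Of the 19 fits that left out a mouse, Impdh1 kept its call in 16, Umps in 13 and Prps2 in 7.

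Of 27 genes that control entry into S phase, 3 passed in IKKβ+/+ mice, beside 8.66% of all genes tested. Myc, a factor that drives growth and entry into the cycle, rose by 1.62 (SE 0.46, adjusted p 0.0507), from 66.2 to 144 normalized counts with saline to 116 to 780 with Ang II. Cdkn1a, which encodes the cycle inhibitor p21, rose by 1.02 (SE 0.24, adjusted p 0.0204), from 609 to 1177 with saline to 1341 to 3243 with Ang II, 2 ranges that did not overlap. Ccnd2, the gene of cyclin D2, fell by 0.46 in IKKβ+/+ mice (SE 0.10, adjusted p 0.0137). It fell by 0.56 in IKKβ-/- mice (SE 0.10, adjusted p 0.00800) and was the only gene of this list to pass there, beside 5.29% of all genes. The list had a median of -0.04 in IKKβ+/+ and 0.03 in IKKβ-/- mice. In IKKβ+/+ mice Ccnd2 and Cdkn1a passed in all 9 other settings and without each of the 19 mice, and Myc in all 9 and without 13 of the 19. The call of Ccnd2 in IKKβ-/- mice held without each of the 19 mice and in 7 of 9 other settings. Ccnd2 did not pass there with the adipocyte score (-0.55, adjusted p 0.260) or the clock score (-0.50, adjusted p 0.239) as a covariate.

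**Figure D3:**
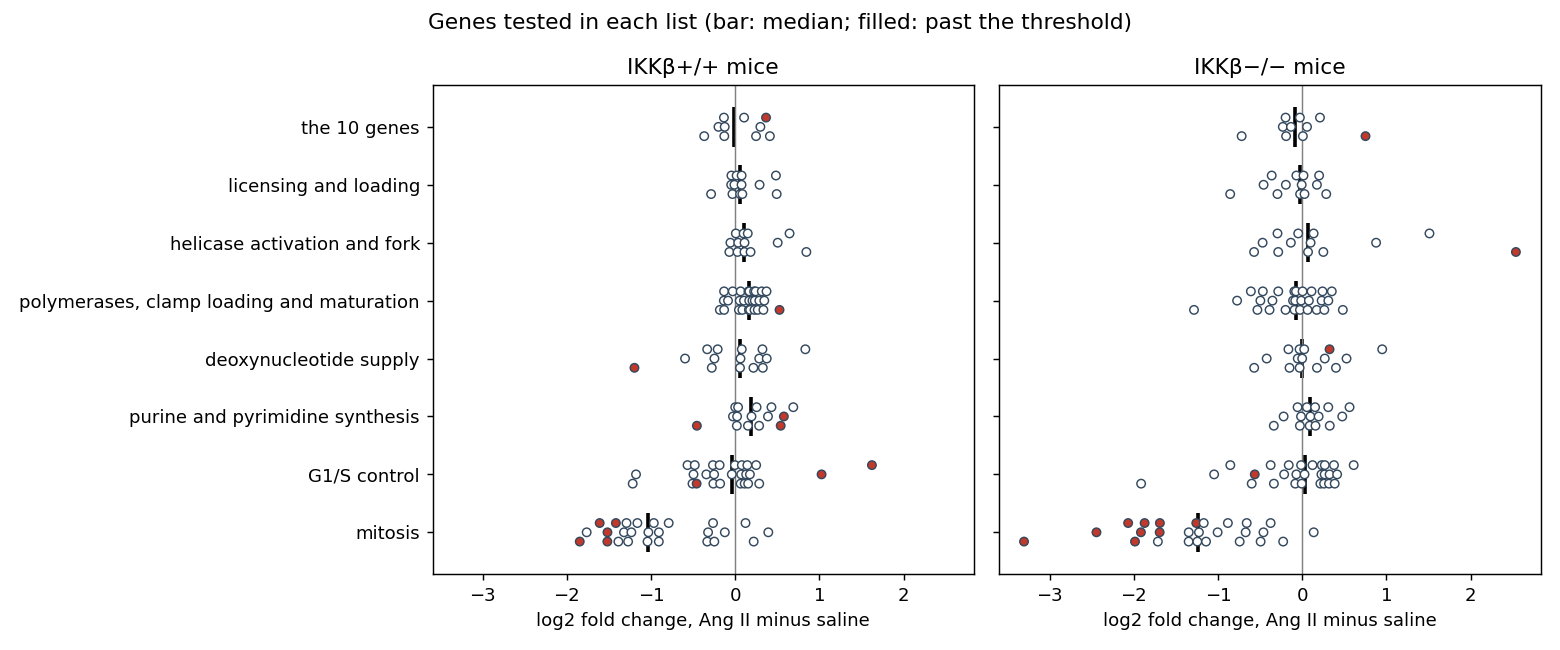
Log2 fold changes (Ang II minus saline, horizontal axis) of the genes tested in each list, with IKKβ+/+ mice on the left and IKKβ-/- mice on the right. Bars are medians and filled points passed the threshold. The mitosis list lies mostly to the left of 0 in both panels (medians -1.04 and -1.24), and the 10 genes have medians of -0.01 and -0.08. Medians of the other lists lie between -0.04 and 0.19 on the left and between -0.08 and 0.10 on the right. On the left, 11 of 13 helicase activation and fork, 22 of 28 polymerase, clamp loading and maturation, and 12 of 15 purine and pyrimidine genes are above 0. On the right these counts are 7, 11 and 10. For licensing and loading, deoxynucleotide supply and control of entry into S phase, 8 of 13, 9 of 15 and 12 of 27 are above 0 on the left. On the right these are 5, 8 and 14. The median over all genes tested is 0.0056 on the left and -0.0029 on the right.

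The list of mitosis genes had the lowest median of the pathway lists in both comparisons of Ang II with saline, though most of its genes did not pass. Of 26 such genes tested, 23 had a log2 fold change below 0 in IKKβ+/+ mice, with a median of -1.04, and 5 passed in the lower direction (Mki67, Kif20a, Cenpf, Nusap1 and Nek2), beside 4.33% of all genes. In IKKβ-/- mice 25 were below 0, the median was -1.24, and 9 passed in the lower direction (Mki67, Ccnb1, Cdk1, Cdc20, Cenpe, Cenpf, Nusap1, Prc1 and Nek2), beside 2.69% of all genes. The list was not tested as a whole, nor was its difference from the 10 genes. No gene of this list passed in the higher direction. Mki67, the gene of the Ki-67 proliferation antigen, fell by 1.42 (SE 0.35, adjusted p 0.0267) in IKKβ+/+ mice, where it had 48.3 to 112 normalized counts with Ang II and 133 to 248 with saline. In IKKβ-/- mice Mki67 fell by 1.98 (SE 0.37, adjusted p 0.00800), with 15.1 to 59.1 against 58.8 to 175, ranges that overlapped slightly. Cenpf, a kinetochore protein, fell by 1.85 (SE 0.60, adjusted p 0.0836) in IKKβ+/+ mice. In IKKβ-/- mice Cenpf fell by 3.30 (SE 0.64, adjusted p 0.00973), and it was at 0 to 10.2 normalized counts in those given Ang II. Nek2, a centrosome kinase, fell by 1.61 (SE 0.47, adjusted p 0.0571) in IKKβ+/+ mice, but had only 3.0 to 6.4 normalized counts with Ang II. Nek2 fell by 1.69 in IKKβ-/- mice (SE 0.50, adjusted p 0.0759), at 1.6 to 3.9 with Ang II. Ccnb1 was also near 0 in Ang II-treated IKKβ-/- mice, at 0 to 4.6 normalized counts. Its call there held in 3 of 9 other settings and in 5 of the 19 fits that left out a mouse. No gene of this list passed the test of a difference between the genotypes' Ang II effects.

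The number of mitosis genes that passed rested on single mice and on the fit, whereas the list's median stayed below 0. With only the groups compared, 12 passed in the lower direction in IKKβ+/+ and 2 in IKKβ-/- mice. With array quality weights these counts were 11 and 10, and with DESeq2 6 and 9. With a pseudocount of 4 they were 5 and 8, and the medians were -0.86 and -1.02. Which genotype had more such genes therefore depended on the fit. In IKKβ+/+ mice 1 gene passed without X2350, X2358, X2370, X2373 or X2376, 2 without X2359 and 3 without X2372 or X2378, with the median between -1.197 and -0.93. In IKKβ-/- mice 4 passed without X2383, X2384, X2385 or X2406, 3 without X2401, 2 without X2403 and 14 without X2409, with the median between -1.70 and -1.06. Mouse X2409 was the saline-infused IKKβ-/- mouse with the lowest mean over the 26 genes (-0.74 on the log2 scale about the mean of all mice, against 0.53 to 0.70 in the other 3). With the adipocyte or the clock score as a covariate 0 passed in IKKβ-/- mice, at medians of -1.61 and -1.30. These counts were computed after the data were seen. In IKKβ+/+ mice levels of cell type markers differed too. The 7 endothelial markers summed to 11104 to 22516 normalized counts with Ang II against 20316 to 35090 with saline, and 2 passed, both lower. The 7 adventitial fibroblast markers summed to 27749 to 83873 against 67850 to 89573, with 6 of 7 below 0 and 1 (Lum) called lower. The 7 macrophage markers summed to 2451 to 5975 against 4209 to 6072, and 0 passed, while the smooth muscle sums given above were higher with Ang II. The part of these markers in the mitosis values was not tested.

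Across the 19 mice the 10 genes moved together only weakly. Of their 45 pairs, 26 had a Pearson's r above 0, with a median of 0.08 and a range from -0.45 (Mcm7 with Rrm1) to 0.74 (Mcm4 with Rrm1). About the group means, the median was 0.16 and Mcm4 with Rrm1 remained the highest pair, at 0.69. Against the mean of the other 9 genes, Mcm3 had the highest r (0.61), followed by Pcna (0.47) and Mcm5 (0.43), and Mcm7 had the lowest (-0.41). The genes most like the mean of the 10 across the mice, of 11412 genes with a mean of at least 50 normalized counts, were Bzw1 (r = 0.80), Cisd2 (0.76), Hif1a (0.76), Fam129b (0.74) and Fam49b (0.74). None of these 5 passed in either comparison of Ang II with saline. All these values share the libraries and size factors of the same mice and are descriptions.

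**Figure D4:**
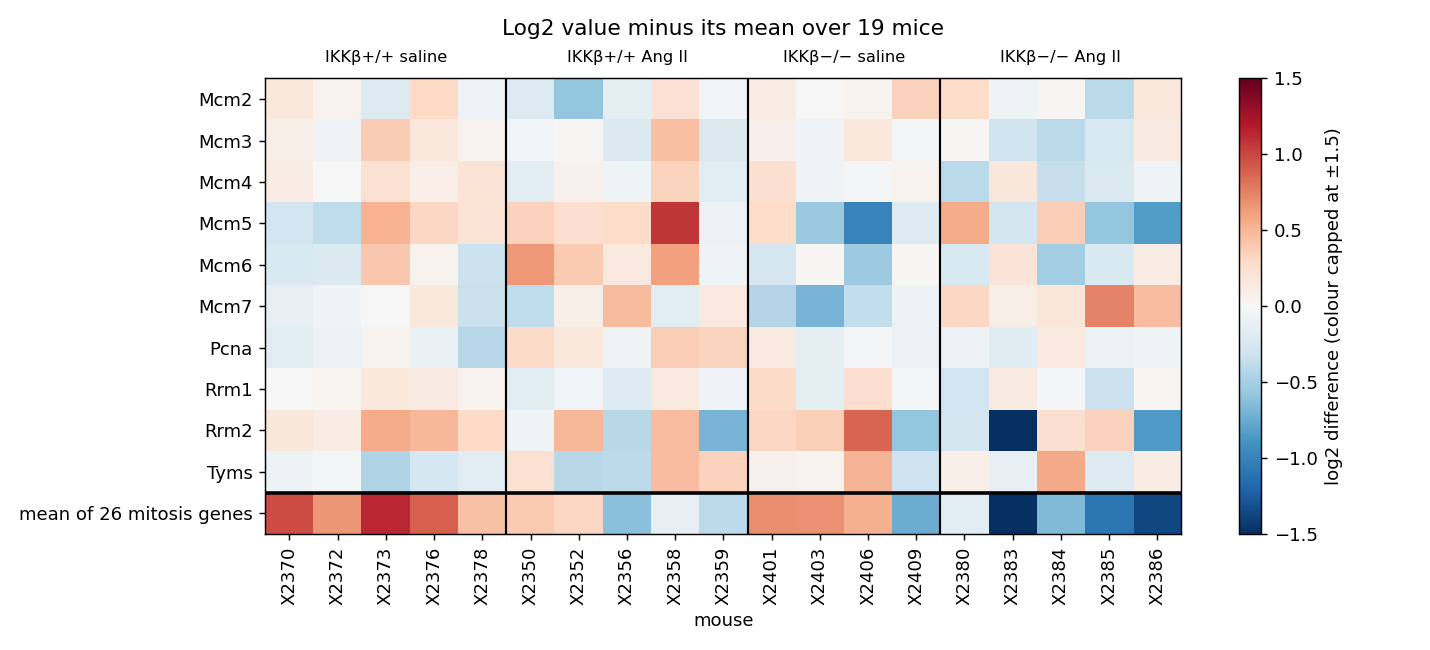
Log2 value of each of the 10 genes minus its mean over the 19 mice (colour), with mice in columns by group and, in the last row, the mean of the 26 mitosis genes on the same scale. The row of mitosis genes is above 0 in all 5 saline-infused IKKβ+/+ mice (0.44 to 1.13) and below 0 in all 5 Ang II-treated IKKβ-/- mice (-1.54 to -0.17), a division that the rows of the 10 genes do not share.

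The mean of the 10 genes about their mean over all mice lay between -0.06 and 0.17 in saline-infused and between -0.06 and 0.40 in Ang II-treated IKKβ+/+ mice. It lay between -0.12 and 0.08 in saline-infused and between -0.22 and 0.02 in Ang II-treated IKKβ-/- mice. The highest value (0.40) belonged to Ang II-treated IKKβ+/+ mouse X2358, which was also the highest of its group for Mcm2, Mcm3, Mcm4, Mcm5, Pcna, Rrm1 and Tyms.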

How the data were processed

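Bulk RNA-Seq of the SRA was read for 19 mice. The authors prepared stranded poly(A) libraries, trimmed reads with Trimmomatic 0.35, aligned them with STAR 2.7.1a to GRCm38 with Gencode release 25 and normalized counts with DESeq2 1.30.1. The signal deposited by the authors is this normalized count per gene. All values (100%) were whole multiples of 1 read within 0.01, so reads were recovered. Of 20408 genes, 14845 reached 10 normalized counts in 4 or more mice and were tested, and depth (11382573 to 19906694 reads) limits genes with few reads.

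Groups were compared on log2(value + 1), which pulls the fold change of low genes toward 0, with limma 3.58.1 in R 4.3.3 (lmFit, eBayes with trend, 1 mean for each of 4 groups, two-sided). P-values were adjusted by Benjamini-Hochberg over all genes tested and measure the spread between mice. Genes were called at a fold change above 1.2 with an adjusted p under 0.1. Alternatives were a pseudocount of 4, no filter, only the groups compared, array quality weights, TMM scaling and the quasi-likelihood test of edgeR 4.0.16, DESeq2 1.42.0 on recovered reads, limits of 0.05 on the adjusted p or of 1.5 on the fold change, an adipocyte or clock score as covariate, and each mouse left out. These settings were applied to the other replication and mitosis genes after the data were seen. The fit was tested on simulated data. Exon lengths came from Gencode release 21.

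The 10 genes and all lists were chosen with earlier results of these data known. Genes named beyond the 10 are the called genes of each list, at most 4 per comparison or all where a count was 5 or fewer, the 9 mitosis genes called in IKKβ-/- mice, named after their values were seen, the 5 genes most like the mean of the 10, and Ikbkb. Cell type markers, the genes that overlap Mcm7 and examples of the licensing list were named outside this rule, after their values were seen.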

Additional observations from a re-analysis of the deposited data

Results flagged for a closer look

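Mcm5 in Ang II-treated IKKβ+/+ mouse X2358 stood apart from its group, at 123.25 normalized counts against 54.7 to 73.9 in the other 4 mice. The gap to the nearest mouse was 0.720 of the range of the group, and the critical value of Dixon's test for 5 samples is 0.71. It was the only such value in 40 groups examined (10 genes in 4 groups), where chance gives about 1 in 20.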

How the results depend on the processing

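The call of Mcm7 in IKKβ-/- mice kept its side of the threshold in every setting except with the adipocyte or clock score as covariate, where 0 of the 10 genes passed. In IKKβ+/+ mice 2 genes passed with array quality weights (Pcna and Mcm6), 0 at an adjusted p under 0.05, 0 at a fold change above 1.5, and 0 to 2 when single mice were left out. Without single mice 1 gene passed each time in IKKβ-/- mice and 0 each time in the 3 other comparisons. The median difference between the Ang II effects moved to 0.0812 with the adipocyte score. The causes were not tested.

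Signs turned for genes that did not pass. With array quality weights Mcm5 was -0.14 for Ang II in IKKβ-/- mice and Mcm4 0.0138 for genotype with saline, and with TMM scaling Rrm1 was -0.0088 for genotype with saline. With the adipocyte score, Ang II in IKKβ-/- mice gave Pcna 0.0336 and Rrm1 0.0174, the difference between effects Mcm3 0.084, Mcm4 0.0785, Mcm5 0.11 and Rrm1 0.12, genotype with saline Rrm1 -0.088 and Rrm2 0.19, and genotype with Ang II Rrm1 0.0336. With the clock score, Ang II in IKKβ-/- mice gave Pcna 0.0049 and Tyms -0.0597, the difference Mcm5 0.30 and Rrm1 0.0524, and genotype with saline Rrm1 -0.11 and Rrm2 0.0627. Leaving out single mice turned the sign for Mcm6 (-0.0596 to 0.15), Pcna (-0.0772 to 0.0305) and Tyms (-0.12 to 0.15) with Ang II in IKKβ-/- mice, for Mcm7 (-0.0069 to 0.21) in IKKβ+/+ mice, for the difference of Mcm2 (-0.0411 to 0.17), Mcm3 (-0.14 to 0.0402), Mcm5 (-0.29 to 0.13) and Rrm1 (-0.13 to 0.0092), for genotype with saline of Rrm1 (-0.0455 to 0.0979) and Rrm2 (-0.30 to 0.19), and for genotype with Ang II of Rrm1 (-0.093 to 0.0195) and Tyms (-0.0767 to 0.15). No paired analysis was possible because the labels give mouse numbers that the groups do not share.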
